A study of Mus musculus with 40 samples.

Results

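The transient outward A-type potassium current of forebrain neurons opens when the membrane depolarises from a negative potential and closes again quickly, and it limits how far action potentials travel back into dendrites. Its channel is built from pore subunits and auxiliary proteins. Kv4 alpha subunits, encoded by Kcnd2 and Kcnd3, form the pore. Cytosolic KChIP proteins, encoded by Kcnip1, Kcnip2, Kcnip3 and Kcnip4, are calcium-binding proteins of the neuronal calcium sensor family that grip the channel's amino terminus and set its surface expression and its rate of inactivation. Dpp6 and Dpp10 encode single-pass membrane proteins related to dipeptidyl peptidase 4 that have lost enzyme activity and speed the gating of Kv4 channels.

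The values described here are those of every deposited transcript that maps to one of these 8 gene symbols. They are 9 of the 6831 transcripts measured and cover 7 of the 8 genes, while Kcnip1 had no transcript to describe and was not analysed here. Kcnip4, Kcnip2, Kcnip3, Kcnd2, Kcnd3 and Dpp10 are represented by 1 transcript each and Dpp6 by 3. Kcnip4 was chosen by its measured differences between these groups, with the results of every comparison known, so its values are given as a description without a test. The other genes were listed as its partners in the channel complex. They too were listed with earlier results of these data known, so their tests are not free of that choice.

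The libraries are bulk RNA-seq of cortex from male C57BL/6 mice (C57Bl/6J in the study's methods) aged 12 weeks. The labels and the table give 10 libraries in each of 4 groups, whereas the series' design text speaks of 4 samples per group, so n below counts libraries. HF-HI mice received repeated high-frequency head impacts. Sham mice went through the same sessions under anesthetic with the impact left out. Each mouse was injected intraperitoneally with either saline or memantine, an open-channel blocker of NMDA receptors, 1 h before each session, and cortex was taken 24 h after the last session. Crossing the 2 procedures with the 2 injections gives the 4 groups, named by drug and procedure, and injection and anesthesia are common to all of them. In bulk tissue, fewer cells of a type and less RNA per cell cannot be told apart.

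Summed reads per library ran from 13322404 to 17529644 and size factors from 0.859 to 1.141. Cortical excitatory markers were well represented, with 12 of 14 in the table. The Slc17a7 mean, for the vesicular glutamate transporter of cortical pyramidal cells, was 10338 to 11049 normalised counts by group. Markers of striatal projection neurons were also present, with 14 of 20 in the table, and their summed count was 38049 to 61737 in sham and 39314 to 53035 in HF-HI libraries under saline, and 41412 to 64108 and 35824 to 56602 under memantine. Under saline, 9 of these 14 striatal genes were lower after HF-HI and 0 were higher at p under 0.05 in limma, where 10.7% of all gene sums passed. Of 9 GABA interneuron markers, 5 were lower and 1 was higher in the same comparison, and their summed count was 28255 to 33632 in saline sham and 27756 to 31173 in saline HF-HI libraries. Each of the other 8 marker lists, for cortical excitatory neurons, hippocampus, thalamus, astrocytes, oligodendrocytes, microglia, endothelial cells and choroid plexus, had 0 or 1 gene past the threshold in this comparison. Drd2 and Adora2a, 2 defining striatal markers, were not analysed here. The part of dissection and of cell types in the results below was not tested. Some fits below include the mean striatal marker level as a covariate. These striatal genes were themselves lower after HF-HI under saline (median difference -0.21). In such fits, tissue content and an effect of impact on these genes cannot be told apart.

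Kcnip4 and Dpp6 each have several transcription starts, and the transcript measured decides which amino terminus is described. The Kcnip4 transcript, NM_001199242, lies at chr5:48389502-49524907 on the minus strand of GRCm38 (mm10) and has 9 exons, 2366 bases and 250 codons. Its start codon is shared with NM_001199243, and the coding sequences of these 2 transcripts differ only by its second coding exon, at chr5:48509659-48509760. This exon adds 102 bases or 34 codons. The first coding bases of both are shown because they hold this difference. Capitals mark the exon that NM_001199243 lacks.
NM_001199242: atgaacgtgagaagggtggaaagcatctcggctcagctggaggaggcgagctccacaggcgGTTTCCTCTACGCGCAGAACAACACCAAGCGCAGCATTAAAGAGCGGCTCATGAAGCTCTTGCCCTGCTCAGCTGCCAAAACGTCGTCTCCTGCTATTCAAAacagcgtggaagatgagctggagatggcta
NM_001199243: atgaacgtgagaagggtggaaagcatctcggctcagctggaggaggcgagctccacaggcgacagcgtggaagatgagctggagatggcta

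All 5 Kcnip4 transcripts compared share the last 587 coding bases. Of the 2267 windows of 100 bases along NM_001199242, 344 (15.2%) occur in none of the other 4 transcripts. Reads of the remaining length could have come from any transcript that holds them, and the 4 others were not analysed here.

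The 3 Dpp6 transcripts start from different promoters on the plus strand, end within a few bases of each other and share their last 2352 coding bases. They are NM_001136060 at chr5:27261975-27727500, NM_001198886 at chr5:26904695-27727505 and NM_207282 at chr5:27049199-27727501, each of 26 exons. Their coding lengths are 803, 801 and 859 codons. The opening bases are shown because these alone tell the coding sequences apart. Capitals mark the bases before the shared part.
NM_001136060: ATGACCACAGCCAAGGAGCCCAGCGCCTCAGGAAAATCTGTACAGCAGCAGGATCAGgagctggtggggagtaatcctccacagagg
NM_001198886: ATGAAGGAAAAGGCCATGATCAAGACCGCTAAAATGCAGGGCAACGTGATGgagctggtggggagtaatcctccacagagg
NM_207282: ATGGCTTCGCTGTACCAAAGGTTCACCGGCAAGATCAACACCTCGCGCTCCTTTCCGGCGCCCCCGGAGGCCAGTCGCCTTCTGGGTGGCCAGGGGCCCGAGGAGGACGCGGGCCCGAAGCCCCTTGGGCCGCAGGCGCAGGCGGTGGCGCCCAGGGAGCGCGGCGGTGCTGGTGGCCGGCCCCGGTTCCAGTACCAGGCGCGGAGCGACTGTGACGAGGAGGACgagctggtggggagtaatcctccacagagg

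The share of 100-base windows found in no other annotated Dpp6 transcript was 8.77% for NM_001136060, 13.0% for NM_001198886 and 13.3% for NM_207282. Most of each Dpp6 transcript is thus sequence that the authors' counting had to divide.

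To compare genes, levels were expressed as normalised counts per kilobase of annotated transcript. In saline sham cortex the order was Dpp6 at 826.9 ± 65.0 (SD, n = 10, sum of the 3 transcripts), Kcnip2 at 745.1 ± 85.6, Kcnd2 at 696.8 ± 34.7, Kcnip3 at 463.2 ± 50.0, Dpp10 at 301.5 ± 16.8, Kcnd3 at 275.2 ± 24.7 and Kcnip4 at 240.2 ± 40.3 counts per kilobase. The transcript of Kcnip4, 1 of its 5 annotated ones compared here, had the lowest mean of the 7 genes in this group. The other genes apart from Dpp6 are likewise represented by 1 transcript each, and any further transcripts of theirs do not enter this order. The ranges over libraries overlapped between Dpp6 and Kcnip2, Kcnip2 and Kcnd2, Dpp10 and Kcnd3, and Kcnd3 and Kcnip4. They did not overlap between Kcnd2 and Kcnip3 or between Kcnip3 and Dpp10. On this scale Kcnip4 was 324.9 ± 56.4 after HF-HI with saline, 287.7 ± 48.5 after sham with memantine and 292.7 ± 25.1 after HF-HI with memantine. In those groups its mean was above that of Kcnd3, at 254.5 ± 17.9, 264.1 ± 25.5 and 254.5 ± 12.8 in the same order, and after HF-HI with saline it was close to that of Dpp10 (320.6 ± 13.9).

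Kcnip4 was highest in saline HF-HI and lowest in saline sham cortex, with the memantine groups between them. Normalised counts in saline sham libraries ran from 388.1 to 708.4 with a median of 584.3. In saline HF-HI libraries they ran from 454.5 to 964.6 with a median of 800.3. The groups overlapped, since replicate 1 of saline HF-HI (454.5) lay low in the sham range and replicate 2 lay just below the top of it, while the other 8 exceeded every saline sham library.

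The group means were 768.7 ± 133 in saline HF-HI and 568.4 ± 95.3 in saline sham (SD, n = 10 each). The ratio of means was 1.35, or 0.44 on the log2 scale, and 9 of 10 HF-HI libraries were above the sham mean. The deposited values are variance-stabilised, a log2 scale that is compressed at low counts. On that scale the difference was 0.14. With the mean striatal marker level in the fit it was 0.12.

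Under memantine the same comparison gave nearly equal levels. Memantine sham libraries ran from 483.5 to 871.3 with a median of 700.9, and memantine HF-HI libraries from 613.0 to 810.5 with a median of 678.1. Every memantine HF-HI library lay inside the range of memantine sham. Means were 692.4 ± 59.5 and 680.7 ± 115, a ratio of 1.02. The fitted difference was 0.011 on the deposited scale.

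Compared with saline by itself, memantine went with a higher Kcnip4 mean in sham mice and a lower one in HF-HI mice. In the sham groups the ratio of memantine to saline means was 1.20, 8 of 10 memantine libraries were above the saline mean, 4 exceeded all saline sham libraries, and the fitted difference was 0.084. In the HF-HI groups the ratio was 0.901, 9 of 10 memantine libraries were below the saline mean, and the fitted difference was -0.049. The difference between the impact effects under memantine and under saline was -0.13. These comparisons share libraries, so they are not independent descriptions of Kcnip4.

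**Figure D1:**
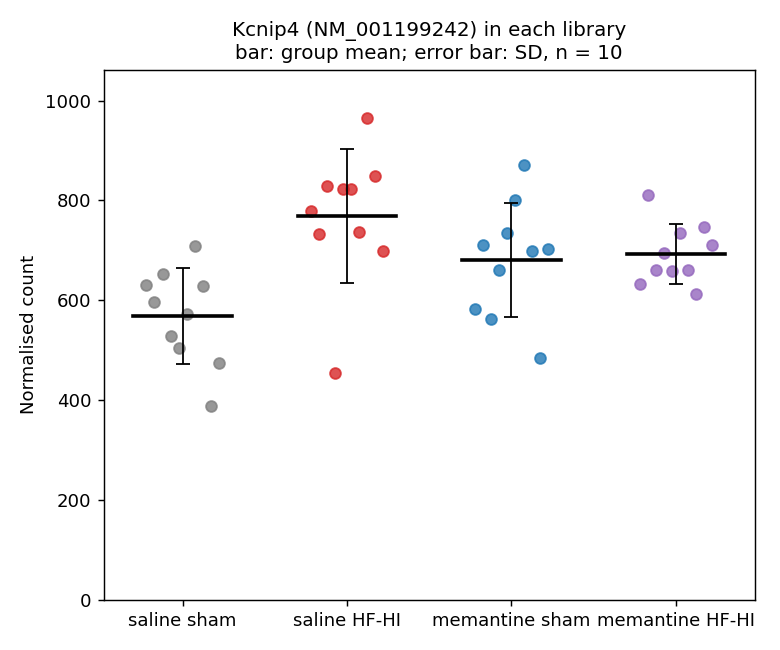
Normalised count of Kcnip4 (vertical axis, from 0) in each of the 40 libraries by group; points are libraries, the horizontal bar is the group mean and the error bar the SD (n = 10). The saline HF-HI mean of 768.7 is the highest and the saline sham mean of 568.4 the lowest, and 1 saline HF-HI library at 454.5 sits apart from its group.

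The coefficient of variation of Kcnip4 within groups was 8.59% to 17.4%, and the counting error at these counts was 3.61% to 4.19%. The narrowest spread was in memantine HF-HI cortex. Kcnip2 (9.68% to 15.5%) and Kcnip3 (9.63% to 10.8%) lay within these limits. The pore subunits Kcnd3 and Kcnd2 varied by 5.01% to 9.66% and 3.28% to 6.70%, and Dpp10 by 3.84% to 7.45%. The Dpp6 transcripts reached higher values, up to 23.6% for NM_001136060, 40.9% for NM_001198886 and 28.2% for NM_207282.

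Among the other 8 transcripts, 2 passed an unadjusted p of 0.05 between saline HF-HI and saline sham, Dpp10 with a higher and Kcnd3 with a lower level. These are 25.0% of the 8, against 9.53% of all transcripts at the same threshold. Neither passed the Benjamini-Hochberg adjusted threshold of 0.1, which 0.205% of all transcripts did. The adjusted p over the 8 ran from 0.411 to 0.843 in limma. Their median difference was -0.046 on the deposited log2 scale, and that of all transcripts was -4.65e-05.

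Dpp10, at chr1:123321471-124045559 on the minus strand, encodes an auxiliary protein that speeds Kv4 inactivation. Its counts were 4223 to 5018 (median 4553) in saline sham and 4624 to 5184 (median 4858) in saline HF-HI libraries. The ranges overlapped, all 10 HF-HI libraries were above the sham mean and 3 were above every sham library. The mean rose from 4612 ± 258 to 4904 ± 212, a ratio of 1.06. The fitted difference was 0.061 ± 0.024 (SE, limma p = 0.0148, adjusted p = 0.411, permutation p = 0.0132 over 100000 two-sided resamples). With the striatal marker level as a covariate it was 0.022 (limma p = 0.274), no longer past the threshold.

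Kcnd3 encodes the Kv4.3 pore subunit, which is prominent in interneurons, and its transcript lies at chr3:105452330-105674002. Its counts were 1600 to 2190 (median 2004) in saline sham and 1647 to 2090 (median 1834) in saline HF-HI libraries. The HF-HI range lay inside the sham range, and 9 of 10 HF-HI libraries were below the sham mean. The mean fell from 1973 ± 177 to 1825 ± 128, a ratio of 0.925. The fitted difference was -0.057 ± 0.026 (limma p = 0.0325, adjusted p = 0.486), and the permutation test gave p = 0.0532. The call was lost when any 1 of 7 libraries was left out, namely saline sham replicates 1, 6, 8 or 10 or saline HF-HI replicates 5, 7 or 9, with limma p of 0.0518 to 0.0727. With the striatal covariate the difference was -0.071 (limma p = 0.0144).

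Kcnd2, at chr6:21215503-21729805, encodes Kv4.2, the main dendritic A-type subunit of pyramidal cells. Its mean was 3590 ± 179 in saline sham and 3441 ± 177 in saline HF-HI cortex, a difference of -0.039 ± 0.021 that did not pass the test (limma p = 0.0761). Of the 10 HF-HI libraries, 7 were below the sham mean, and with the striatal covariate the difference was -0.017 (limma p = 0.435).

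The other 2 KChIP genes had lower means after HF-HI under saline without passing the test. Kcnip2, at chr19:45792346-45816061, had 1785 ± 205 counts in saline sham and 1670 ± 162 in saline HF-HI (difference -0.047 ± 0.038, limma p = 0.226). With the striatal covariate the Kcnip2 difference was -0.00028 (limma p = 0.994). Kcnip3, at chr2:127456498-127521370, also known as DREAM or calsenilin for its roles as a DNA-binding repressor and a presenilin partner, had 1266 ± 137 and 1178 ± 123 counts (difference -0.045 ± 0.029, limma p = 0.126). Of the 8 transcripts, Dpp10 and Dpp6 NM_001136060 had a positive difference and the other 6 a negative one.

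**Figure D2:**
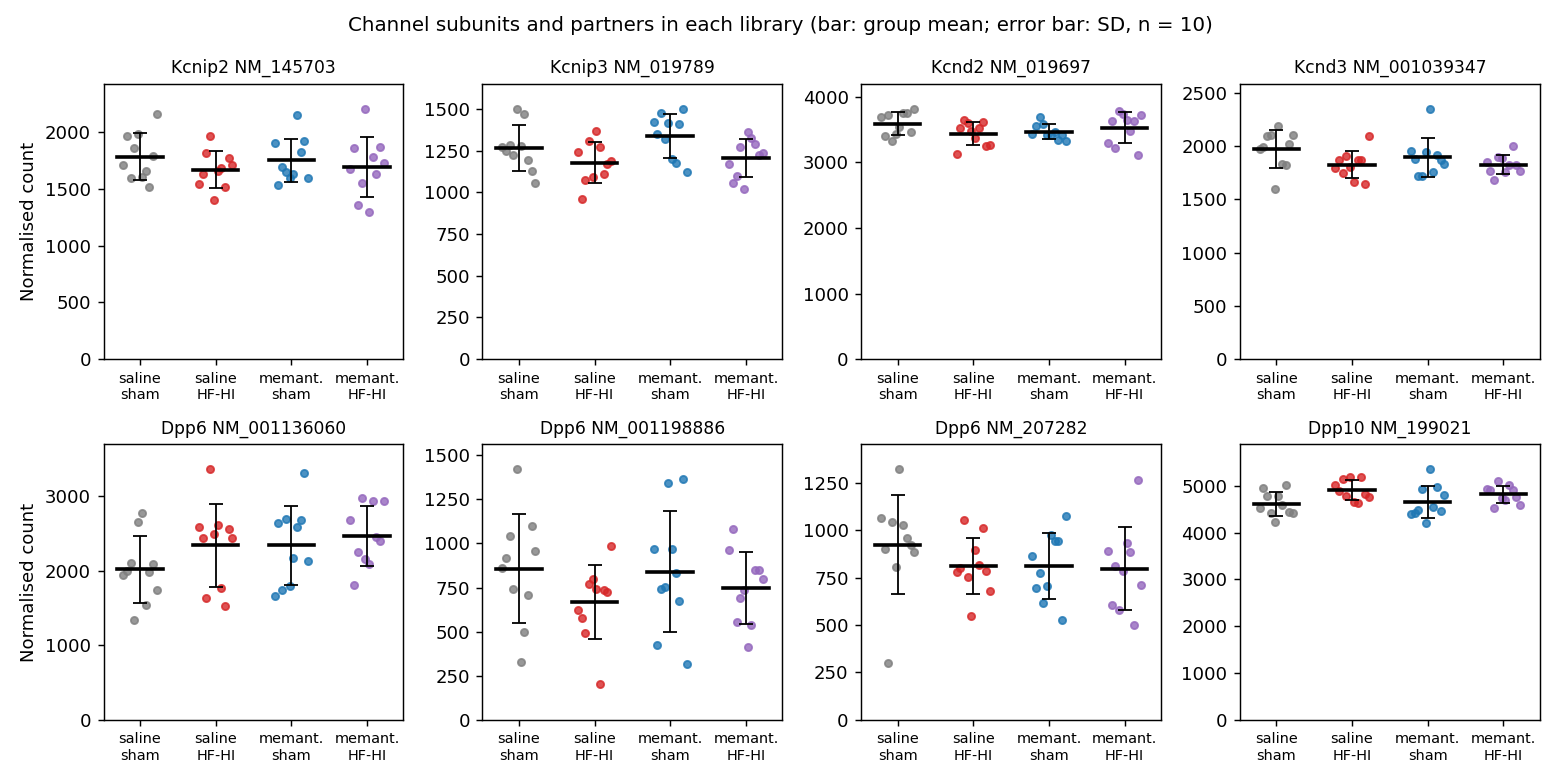
Normalised counts (vertical axes, each from 0) of the 8 transcripts other than Kcnip4 in the 4 groups; points are libraries, horizontal bars group means and error bars SD (n = 10). Within every panel the groups overlap, and the 3 Dpp6 transcripts spread far more widely than Kcnd2 or Dpp10.

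Under memantine, 1 of the 8 transcripts passed p of 0.05 between HF-HI and sham, or 12.5% against 4.61% of all transcripts. It was Kcnip3, with a lower level after HF-HI. Adjusted p was 0.967 to 0.993 over the 8, and 0.0146% of all transcripts passed the adjusted threshold. Kcnip3 counts were 1120 to 1502 (median 1380) in sham and 1022 to 1363 (median 1232) in HF-HI libraries given memantine. Of the HF-HI libraries, 9 were below the sham mean and 3 below every sham library. The mean fell from 1339 ± 133 to 1206 ± 116, a ratio of 0.901, and the fitted difference was -0.066 ± 0.029 (limma p = 0.0263, adjusted p = 0.967, permutation p = 0.0311).

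The Kcnip3 call was lost without memantine sham replicate 3 or 4 or memantine HF-HI replicate 8 or 10, with limma p of 0.0523 to 0.0623. Its difference under saline had the same sign, and the 2 impact effects differed by -0.021 ± 0.040 (limma p = 0.600), so no difference between the drug arms was shown. Dpp10 had means of 4654 ± 347 in sham and 4817 ± 185 in HF-HI cortex under memantine, a difference of 0.035 ± 0.024 (limma p = 0.149). The interaction for Dpp10 was -0.026 ± 0.034 (limma p = 0.449), and for Kcnd3 0.031 ± 0.036 (limma p = 0.393).

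For memantine against saline, 0 of the 8 transcripts passed p of 0.05 in limma in the HF-HI groups, where 3.91% of all transcripts did, and the 8 p-values were 0.310 to 0.982. In the sham groups 0 of the 8 passed as well, against 7.51% of all transcripts, with p of 0.135 to 0.852. At the adjusted threshold 0 of 8 passed in both, as did 0% and 0.0293% of all transcripts. The permutation tests gave 0 calls in these 2 comparisons.

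The interval of the difference, on the deposited log2 scale, shows how much could have gone unseen. For Kcnd2 it was -0.021 to 0.065 in the HF-HI groups and -0.075 to 0.011 in the sham groups, and for Dpp10 -0.066 to 0.031 and -0.040 to 0.057. For Dpp6 NM_001198886 it was far wider, at -0.11 to 0.23 and -0.19 to 0.15. Per log2 unit of the count, the deposited scale moves by 0.343 at 700 counts and by 0.698 at 5000. The same width therefore stands for a larger fold change in this transcript than in the more abundant Kcnd2 or Dpp10. The interaction of impact and memantine passed p of 0.05 for 0 of the 8 transcripts in limma, against 3.73% of all transcripts, and 0% of all passed the adjusted threshold. The smallest p was that of Kcnd2 (0.054 ± 0.030, limma p = 0.0828).

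**Figure D3:**
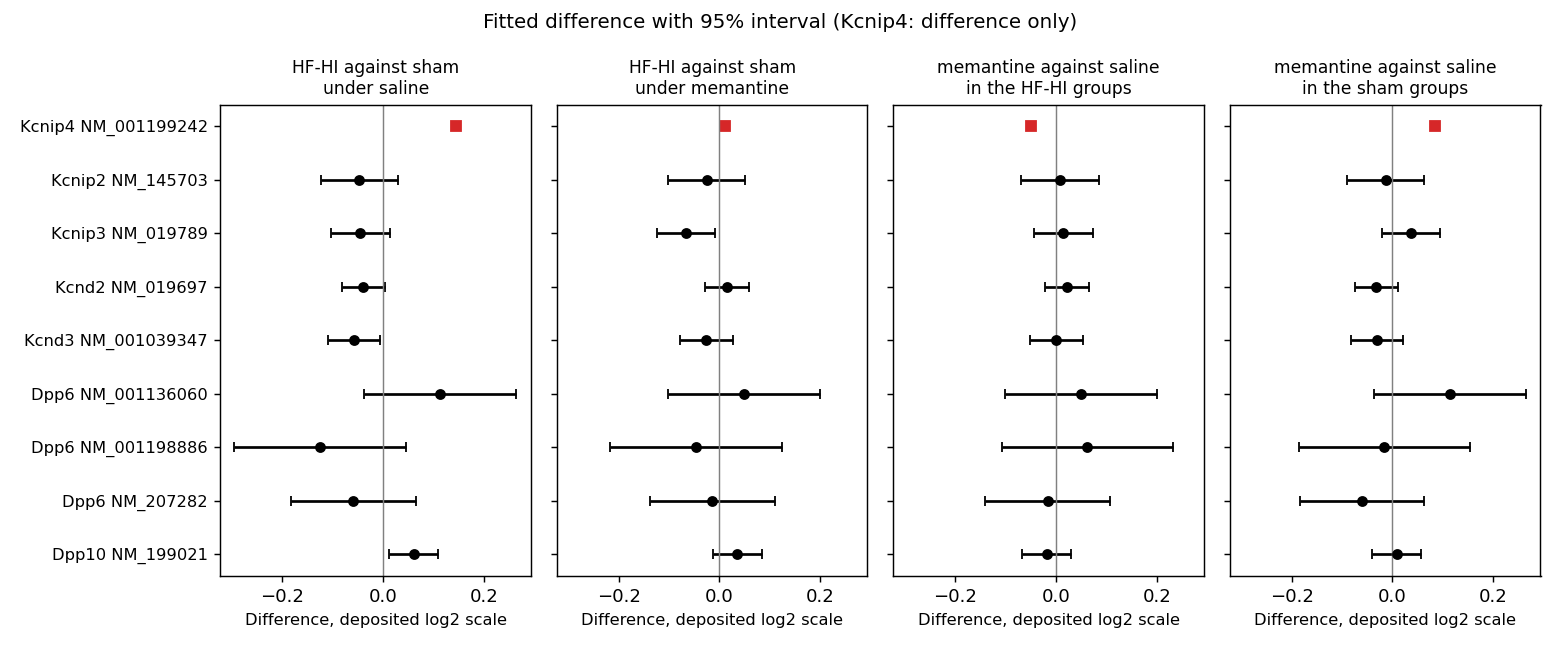
Fitted difference on the deposited log2 scale (horizontal axis) for the 9 transcripts (rows) in the 4 comparisons between pairs of groups; black circles with 95% intervals are the partners, and the red square is Kcnip4, drawn without an interval because it was chosen by these differences. Intervals that leave out 0 among the partners belong to Dpp10 and Kcnd3 under saline and to Kcnip3 under memantine.

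Single Dpp6 transcripts varied more from library to library than their sum did. The coefficient of variation within groups was 16.4% to 23.6% for NM_001136060, 27.4% to 40.9% for NM_001198886 and 18.3% to 28.2% for NM_207282, against 6.85% to 9.63% for the sum. Counting error at these counts was 2.01% to 3.88% for single transcripts. Single libraries ranged from 1334 to 3361 counts for NM_001136060, from 205.0 to 1420 for NM_001198886 and from 299.5 to 1321 for NM_207282, and the sum from 3138 to 4600.

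NM_001136060 held the largest mean share of the gene in each group. Its share under saline was 53.2 ± 11.2% (SD, n = 10) in sham and 60.7 ± 9.86% in HF-HI cortex, and under memantine 58.4 ± 11.4% and 61.5 ± 8.55%. NM_001198886 held 22.6 ± 8.02%, 17.9 ± 6.67%, 21.1 ± 8.40% and 18.6 ± 4.60% in the same order, and NM_207282 held 24.3 ± 6.60%, 21.5 ± 4.34%, 20.5 ± 4.91% and 19.9 ± 5.65%. The shares overlapped widely between groups.

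After removal of group means, log2 counts of NM_001136060 ran against those of NM_001198886 (Pearson r = -0.66, Spearman rho = -0.62, 40 libraries) and of NM_207282 (r = -0.53, rho = -0.53). Without the 2 libraries farthest from the median of NM_001136060 these were -0.64 and -0.58. Both signs held in each of the 4 groups, where r was -0.39 to -0.73 and -0.37 to -0.76. NM_001198886 and NM_207282 ran together (r = 0.33, rho = 0.32). The transcripts share most of their sequence, and the part of read assignment in these relations was not tested.

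**Figure D4:**
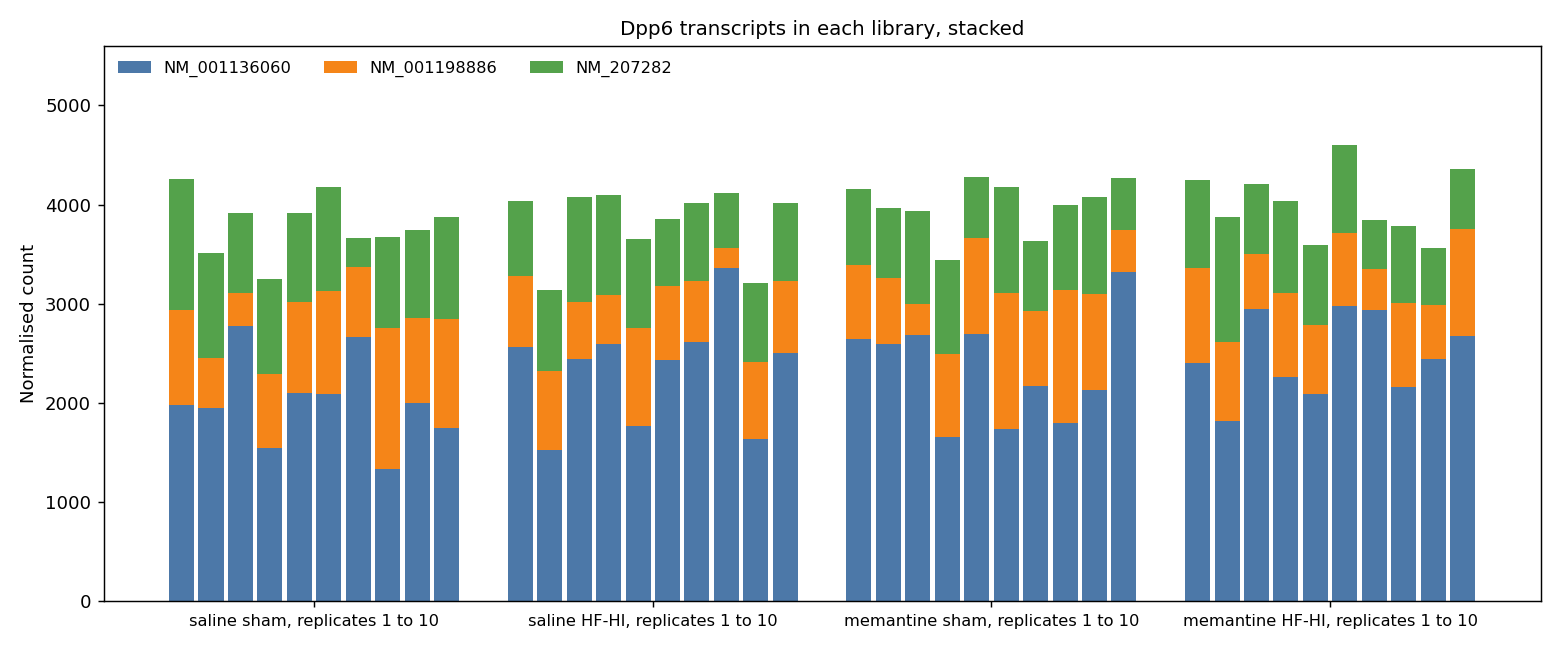
Normalised counts of the 3 Dpp6 transcripts stacked for each library (vertical axis, from 0), with libraries ordered by replicate number inside each group. Total height varies between 3138 and 4600 while the boundary between the transcripts moves much more, as in saline HF-HI replicate 8, where NM_001136060 reaches 3361 counts and NM_001198886 falls to 205.0.

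None of the 3 passed the test between saline HF-HI and saline sham. The differences were 0.11 ± 0.075 for NM_001136060 (limma p = 0.138), -0.12 ± 0.084 for NM_001198886 (limma p = 0.145) and -0.058 ± 0.061 for NM_207282 (limma p = 0.345). With the striatal covariate the first was 0.20 (limma p = 0.00823) and the second -0.21 (limma p = 0.0187), in opposite directions. The sum had 3797 ± 299 counts in saline sham and 3820 ± 368 in saline HF-HI, a ratio of 1.01 (limma p = 0.907). In memantine sham and HF-HI cortex it was 3992 ± 273 and 4011 ± 339 (limma p = 0.918).

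Levels of the complex's members did not move as one across libraries. After removal of group means, the r of Kcnip4 with the pore subunits was 0.17 for Kcnd2 and 0.11 for Kcnd3, and with the other KChIP genes -0.25 for Kcnip2 and -0.045 for Kcnip3. The highest r of Kcnip4 with a partner was that with Dpp10 (r = 0.36, rho = 0.35, and 0.36 without the 2 farthest libraries), although it was -0.23 in memantine HF-HI cortex. Kcnip2 ran against Dpp10 (r = -0.51, rho = -0.49, and -0.45 without the 2 farthest libraries), with values from -0.89 in saline sham to 0.055 in saline HF-HI cortex. With the mean log2 level of the marker lists, Kcnip4 had an r of 0.42 for 4 thalamic markers, 0.27 for 9 oligodendrocyte markers, -0.33 for 3 hippocampal markers, -0.29 for 9 GABA interneuron markers and -0.27 for 14 striatal markers, and between -0.080 and 0.17 for the other 5 lists. The points share library, depth and dissection, and no test was made.

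**Figure D5:**
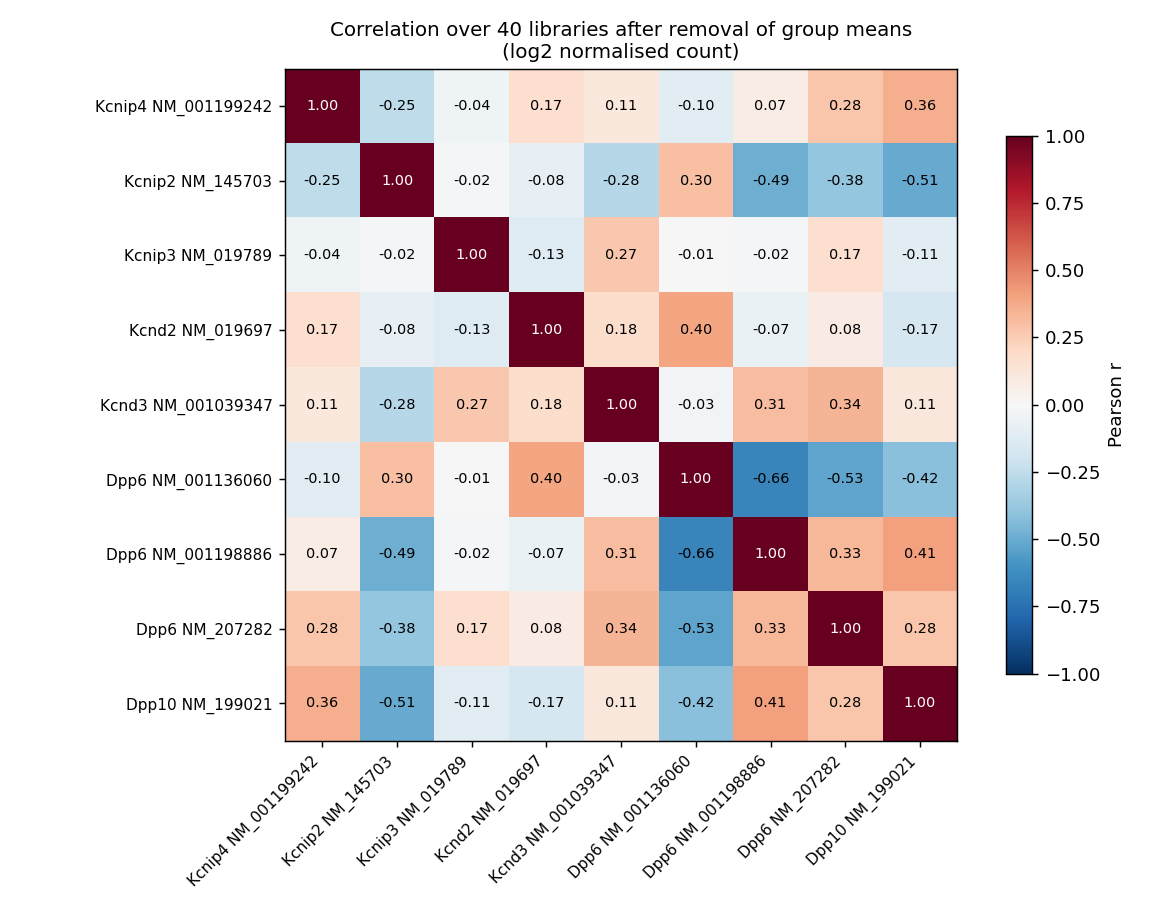
Pearson r between the 9 transcripts over 40 libraries, from log2 normalised counts with group means removed; red is positive and blue negative, and each cell prints its value. The darkest cells off the diagonal are the negative ones between NM_001136060 and the other 2 Dpp6 transcripts, and the Kcnip4 cells lie between -0.25 and 0.36.

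Outside the complex, 5831 genes with a count in every library were ranked by r with Kcnip4 on the same scale. The middle of this distribution was at 0.0029, with -0.37 and 0.34 as its 5th and 95th percentiles. The 5 highest were Dennd6a (r = 0.61, rho = 0.31), an exchange factor for Rab14, Scn1a (r = 0.59, rho = 0.42), the Nav1.1 sodium channel of fast-spiking interneurons, Nrip3 (r = 0.59, rho = 0.55), Gabrb2 (r = 0.57, rho = 0.53), a GABA-A receptor beta subunit, and Asph (r = 0.56, rho = 0.53), an aspartyl hydroxylase. The r of Dennd6a fell to 0.18 without the 2 libraries farthest from the Kcnip4 median and so rests on them, whereas those of the other 4 stayed at 0.42 to 0.53. The 3 lowest were Eif1 (r = -0.66, rho = -0.59), a start-codon selection factor, Srp68 (r = -0.61, rho = -0.49), of the signal recognition particle, and Numa1 (r = -0.59, rho = -0.54), of the mitotic spindle pole. Without the 2 libraries these were -0.68, -0.49 and -0.59. The values differed by group, and in memantine HF-HI cortex the r was 0.13 for Srp68, -0.20 for Numa1 and 0.056 for Scn1a, while in memantine sham cortex it was -0.051 for Dennd6a. For Nrip3, Gabrb2, Asph and Eif1 the sign was the same in all 4 groups.

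Relatives of the complex were examined as gene sums, on log2 of the summed count plus 1. Their lists were also chosen with earlier results of these data known. Of 12 other A-type and auxiliary potassium channel genes, 8 were in the table, and under saline 2 were higher and 1 lower after HF-HI at p of 0.05, where 10.7% of all gene sums passed. Kcnab3, a Kv1 beta subunit, rose from 1034 ± 112 to 1184 ± 137 counts (0.19 ± 0.061, limma p = 0.00295, adjusted p = 0.204). Kcna1, the Kv1.1 pore subunit, rose from 8170 ± 579 to 8553 ± 369 (0.068 ± 0.032, limma p = 0.0423, adjusted p = 0.444). The lower one was Kcnab1, named here after its value was seen to complete the count. The list's median difference was 0.024, and that of all genes -2.09e-05.

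The same 2 genes were higher with memantine than with saline in sham mice, where 7.9% of all gene sums passed and 0 of the list's 8 genes were lower. Kcna1 was 8780 ± 339 counts with memantine (0.11 ± 0.032, limma p = 0.00224, adjusted p = 0.390), above the saline mean in 10 of 10 libraries. Kcnab3 was 1134 ± 67.5 counts (0.14 ± 0.061, limma p = 0.0297, adjusted p = 0.581). Both comparisons use the saline sham libraries.

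Of 22 listed interactors and modulators of Kv4 channels, 21 were in the table. After HF-HI under saline, 1 was higher and 1 lower at p of 0.05 in limma. With memantine in sham mice, 2 were higher and 0 lower. These shares were close to those of all gene sums, 10.7% and 7.9%. Nedd4l, a ubiquitin ligase that acts on ion channels, was lower after HF-HI under saline, with 4533 ± 200 counts in saline sham and 4238 ± 114 in saline HF-HI, and all 10 HF-HI libraries were below the sham mean (-0.096 ± 0.030, limma p = 0.00282, adjusted p = 0.204). In sham mice Flna, the filamin that anchors Kv4.2 to actin, was higher with memantine, at 2637 ± 268 against 2334 ± 419 (0.19 ± 0.084, limma p = 0.0287, adjusted p = 0.581). The list's medians were -0.0036 for impact under saline and 0.020 for memantine in sham mice.

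Among 10 neuronal calcium sensors and calmodulins, 8 were in the table. At p of 0.05 in limma, 1 was higher and 0 lower after HF-HI under saline, against 10.7% of all gene sums. With memantine in sham mice 1 was higher and 0 lower, against 7.9%. Among 8 genes, 1 call is close to both shares. Vsnl1, visinin-like protein 1, was higher after HF-HI under saline, at 6977 ± 445 against 6589 ± 376 counts (0.082 ± 0.040, limma p = 0.0481, adjusted p = 0.460). Hpca, hippocalcin, was higher with memantine in sham mice, at 7073 ± 676 against 6528 ± 655 (0.12 ± 0.052, limma p = 0.0313, adjusted p = 0.581). Of 8 dipeptidyl peptidase relatives, 4 were in the table, and 1 was higher and 0 lower after HF-HI under saline, against 10.7% of all gene sums. The higher one was the cytosolic peptidase Dpp3, at 577.8 ± 43.8 against 519.6 ± 45.2 (0.15 ± 0.050, limma p = 0.00398, adjusted p = 0.225). The medians of these 2 lists under saline were 0.031 and 0.034.

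None of the 41 genes in these 4 lists passed p of 0.05 in limma between memantine HF-HI and memantine sham (4.37% of all gene sums did), between memantine and saline in the HF-HI groups (3.68%) or in the interaction (3.59%). At the adjusted threshold the lists had 0 calls in each comparison. Whether their impact effects differ between saline and memantine was thus not shown for any of them.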

How the data were processed

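Cortex RNA-seq of 40 libraries was used. The deposited values are variance-stabilised log2 values per transcript, made by the authors from counts with DESeq2. Their methods describe ribosomal RNA depletion, stranded libraries, STAR alignment to mm10 and eXpress counting, while the submitters' processing notes name HISAT2 and StringTie with mm10. The table holds 6831 transcripts of 5875 gene symbols (99.82% of identifiers matched, RefSeq and GENCODE M21 names). The lowest mean count in it was 549.2, so rarer transcripts were not analysed.

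Normalised counts were recovered by inverting the transform, whose floor was 10.35766. Every value under 5000 was then a whole multiple of what 1 read is worth, within 0.1 reads. No 2 libraries shared more than 0.088% of values.

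The deposited values were fitted across all transcripts with limma 3.58.1 (R 4.3.3), with a mean per group over all 40 libraries and a variance trend. Gene sums were fitted on log2 of the count plus 1. Calls are at unadjusted p of 0.05 and at Benjamini-Hochberg adjusted p of 0.1 over the whole table. Permutation tests used 100000 resamples. The labels do not state that each library is a separate mouse and name no batch, so p-values measure the spread between these libraries.

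The members and lists were chosen with earlier results of these data known. Named genes were all member transcripts, up to 2 genes with the smallest p of 0.05 or less per list and comparison, and the 5 highest and 3 lowest in r with Kcnip4, and 1 listed gene is not reported here. Sequences and positions are from GENCODE transcripts paired with RefSeq names on GRCm38.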

Additional observations from a re-analysis of the deposited data

Results flagged for a closer look

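Each member was examined in each group for a library whose gap to its nearest neighbour was large against the group's range (Dixon's test at the 95% level, which chance flags in about 1 of 20 groups). Of 40 such groups of values examined, 3 had a library that stood apart. The fits without these libraries describe their weight. Each was left out for its extreme value, so p-values after its removal are not independent tests. Kcnip4 in saline HF-HI replicate 1 had 454.5 normalised counts, far below the other 9 libraries, and without it the difference from saline sham was 0.17 in place of 0.14 on the deposited log2 scale. Kcnd3 in memantine sham replicate 5 had 2350 counts, far above its group, and without it the difference between memantine and saline in sham mice was -0.050 (limma p = 0.0390) in place of -0.031 (limma p = 0.238). Dpp6 NM_207282 in saline sham replicate 7 had 299.5 counts, far below its group, and without it the difference between HF-HI and sham under saline was -0.11 (limma p = 0.0341) in place of -0.058 (limma p = 0.345), and that between memantine and saline in sham mice was -0.11 (limma p = 0.0310) in place of -0.061 (limma p = 0.327).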

How the results depend on the processing

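Directions and calls of the 8 transcripts other than Kcnip4 were recomputed under the alternatives, except that Dpp6 NM_001198886 and NM_207282 lie below the filter at a mean count of 1000 and that the interaction had no permutation test and no fit of only the groups compared. In the comparison of HF-HI with sham under saline, 308 of 320 values with 1 library left out and 73 of 78 values under other settings stayed on the same side of the threshold, and for memantine against saline after HF-HI all 320 and 78 did. The called differences of Dpp10, Kcnd3 and Kcnip3 kept their sign in all of them. The 320 values include libraries outside the pair of groups compared. Leaving out such a library cannot move the difference, only the shared estimate of the spread, so it says little about a call. Permutation, striatal-covariate and leave-one-out losses of single calls are given beside the results. With libraries weighted by their residual variance, Kcnd2 under saline (-0.043, limma p = 0.0464) and Dpp10 under memantine (0.046, limma p = 0.0451) gained a call. Dpp10 under memantine also gained one without memantine sham replicate 9 (0.051, limma p = 0.0275), Dpp6 NM_001198886 under saline without saline sham replicate 3 (-0.17, limma p = 0.0443), Kcnd2 under saline without saline sham replicate 5 or 9 or saline HF-HI replicate 1 (limma p = 0.0377 to 0.0494), and the Kcnd2 interaction without saline sham replicate 9 or memantine HF-HI replicate 2 or 5 (limma p = 0.0266 to 0.0487).

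The number of the 8 transcripts past the threshold, 2 under saline and 1 under memantine for impact and 0 elsewhere, ranged with 1 library left out from 1 to 3, from 0 to 2, from 0 to 1 for memantine in sham mice and from 0 to 1 for the interaction, with the same ranges over gene sums. Weighting gave 2 for impact under memantine on both scales and 1 for the interaction of gene sums, and the striatal covariate gave 3 for transcripts and 1 for gene sums under saline.

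Over all transcripts, a mean count of at least 1000 left 425 calls in place of 651 for impact under saline, 178 in place of 315 under memantine, 155 in place of 267 for memantine in HF-HI mice, 332 in place of 513 in sham mice and 138 in place of 255 for the interaction, since fewer transcripts were tested. In gene sums it left 157 in place of 257 for impact under memantine, 133 in place of 216 for memantine in HF-HI mice and 117 in place of 211 for the interaction. The striatal covariate left 399 transcripts and 347 gene sums (630 without it) for impact under saline. Weighting gave 513 transcripts and 548 gene sums for impact under memantine and 384 gene sums for the interaction. Apart from the construction of the filter, the cause was not tested. Leaving out 1 library gave 253 to 525 transcripts and 186 to 489 gene sums for impact under memantine, highest without memantine sham replicate 9, and 170 to 332 gene sums for the interaction, highest without saline HF-HI replicate 1.

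Among the transcripts past the unadjusted threshold between HF-HI and sham under memantine, 51.7% had higher values after HF-HI. Centring each library on its median raised this share, among those called in that fit, to 66.6%, and quantile normalisation raised it to 62.2%. The median difference over all transcripts lay between -0.0025 and 0.0030 in every comparison under both settings. Replicate numbers did not pair the libraries (mean r of same-numbered deviations -0.013 to 0.022). With them as a replicate block, 656 transcripts passed for impact under saline and the numbers of member calls were 2, 1, 0, 0 and 0 as without it. Depth sets a counting error of 1.43% to 4.19% on the members.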
